A study of Mus musculus with 10 samples.

Results

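Heme breakdown and iron handling were followed through 10 genes, listed by symbol, of the 47729 genes in the count table: the heme oxygenases Hmox1 and Hmox2, the biliverdin reductases Blvra and Blvrb, the ferritin chains Fth1 and Ftl1, the transport genes Slc40a1, Slc48a1 and Tfrc, and Fech, which completes heme. Each symbol matched 1 row. RNA was taken on postnatal day 40 from eyecups of 5 CD1 mice and stands for the retinal pigment epithelium (RPE), and each mouse gave 1 GFP control eye and 1 Nrf2 eye. All 10 eyes carried AAV Best1 GFP, an adeno-associated virus with the RPE promoter Best1. The Nrf2 eyes also carried AAV Best1 Nrf2, with the human coding sequence of Nrf2, a transcription factor that turns on antioxidant genes. The Nrf2 eyes thus received 1 vector more, and that added vector and Nrf2 itself cannot be told apart. The comparison asked which genes differed between the eyes of a mouse.

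Heme oxygenase opens the heme ring and yields biliverdin, carbon monoxide and iron. Biliverdin reductase then turns biliverdin into bilirubin, an antioxidant, while the freed iron is stored in ferritin or leaves the cell through ferroportin, the product of Slc40a1. The RPE takes up shed photoreceptor tips every day and thereby handles heme and iron from outside, and Hmox1, ferritin and Slc40a1 are known targets of Nrf2 in other tissues.

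Of the 10 genes, 5 rose in the Nrf2 eyes, which were Hmox1, Blvrb, Fth1, Ftl1 and Slc40a1, and 0 fell (edgeR quasi-likelihood test blocked by mouse, adjusted p under 0.05 over 16362 tested genes). Across all tested genes 6.33% passed, 3.60% as higher and 2.73% as lower. At an unadjusted p under 0.05, and likewise with DESeq2, 6 of the 10 were higher and 0 lower. Of all tested genes 19.1% had such an unadjusted p (9.58% higher and 9.53% lower), and DESeq2 called 9.08% of the 19913 genes it tested (5.32% higher and 3.76% lower). The 5 genes rose by log2 fold changes from 1.38 (Fth1) to 6.12 (Hmox1), each in 5 of 5 mice, and their control and Nrf2 eyes did not overlap in CPM, the counts of a gene scaled to the total of its library. Being higher in every mouse held for 9.23% of all tested genes, and groups that do not overlap for 6.28% (3.87% higher and 2.41% lower). The other 5 were Hmox2, Blvra, Slc48a1, Tfrc and Fech. Blvra had a log2 fold change of 0.63 short of the threshold, and the other 4 lay between -0.01 and 0.11. The median of the 10 was 1.00, against -0.01 for all tested genes. The same 5 genes passed in all 11 alternative fits, and Blvra joined them in 2.

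Below, levels are means ± SD over the 5 eyes of a group, changes are log2 fold changes of Nrf2 over control eyes with the SE of the within-mouse differences, counts of mice with a higher or lower Nrf2 eye use TMM-scaled log2 CPM unless CPM is named, and adjusted p-values come from edgeR unless another tool is named.

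**Figure D1:**
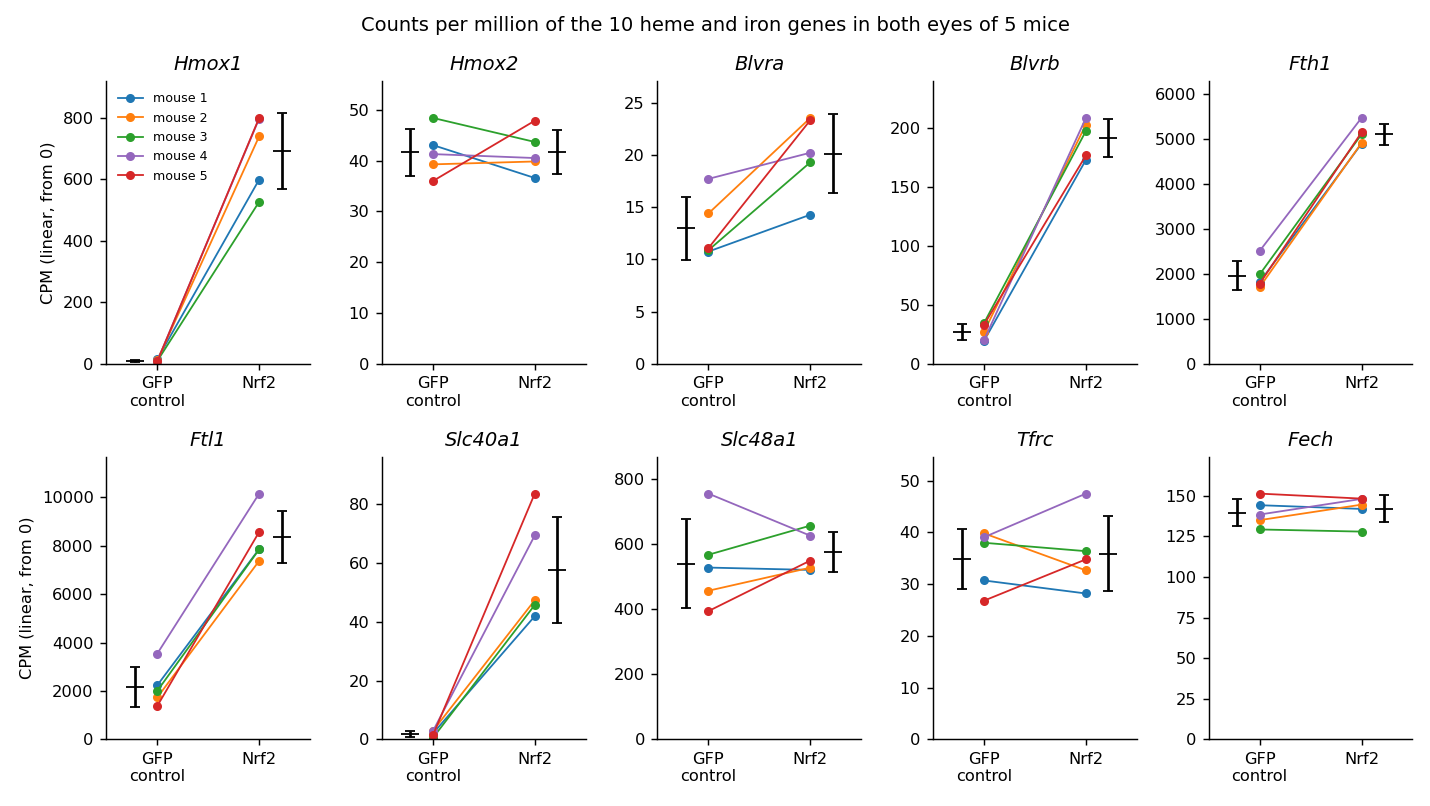
CPM of each of the 10 genes (vertical axes linear from 0, with a scale of their own) in the GFP control and the Nrf2 eye of the 5 mice. Lines join the eyes of a mouse and black marks give the mean ± SD of 5 eyes. Hmox1, Blvrb, Fth1, Ftl1 and Slc40a1 climb in every mouse, while the lines of Hmox2, Slc48a1, Tfrc and Fech cross or stay level.

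Library totals ran from 12298404 to 27310638 counts, so that 3 counts, the most that a count of 0 allows, stood for 0.110 to 0.244 CPM. Among 10 RPE markers, Ttr, Rpe65, Rlbp1, Lrat and Tyrp1 were abundant, but Best1 was at 0.766 ± 0.468 CPM in control and 1.14 ± 0.304 CPM in Nrf2 eyes (SD, n = 5 each). The summed RPE markers ranged from 14595 to 29656 CPM in control and from 10204 to 25682 CPM in Nrf2 eyes. Ttr, the most abundant of them, averaged 11543 CPM in control and 11751 CPM in Nrf2 eyes. By edgeR 4 of the 10 fell and 6 did not pass. In mean CPM, Rpe65 went from 3492 in control to 547 in Nrf2 eyes, Rlbp1 from 2657 to 722, Lrat from 1155 to 272 and Otx2 from 347 to 225. Of 13 macrophage and microglia markers 11 rose, and their sum ranged from 161 to 285 CPM in control and from 353 to 1773 CPM in Nrf2 eyes. No marker of that list had a group mean of 0, and Csf1r, which made up most of the control sum at 196 ± 50.5 CPM, did not pass (142 ± 58.9 CPM in Nrf2 eyes, adjusted p = 0.301). The summed markers of red blood cells (275 to 2180 CPM in control and 370 to 2513 CPM in Nrf2 eyes), rods (41.0 to 20042 and 65.4 to 7794 CPM), endothelium (40.8 to 157 and 76.6 to 145 CPM), fibroblasts (125 to 677 and 135 to 774 CPM) and skeletal muscle (49.97 to 99.7 and 5.37 to 572 CPM) overlapped between the groups. Both eyes of mouse 2 held the most rod RNA of their group, but the eyes of a mouse were not matched in it. The rod sum was 20042 CPM in control and 7794 CPM in the Nrf2 eye of mouse 2, and 2951 and 65.4 CPM in mouse 4. In mouse 1 the Nrf2 eye was the higher (41.0 and 71.8 CPM). Of the 9 rod markers tested, 0 had a log2 fold change above 0 (median -1.25). By edgeR 0 passed, and DESeq2 called 1 lower. In such bulk samples, fewer cells of a type and less RNA per cell cannot be told apart.

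Heme oxygenase showed the widest gap of the set. Hmox1 (ENSMUSG00000005413, mm10 chromosome 8, 75093621 to 75100589, + strand), the inducible enzyme, was at 14.7, 10.97, 8.73, 8.48 and 7.25 CPM in the control eyes of mice 1 to 5. In their Nrf2 eyes it was at 599, 740, 527, 798 and 800 CPM. The lowest Nrf2 eye therefore stood far above the highest control eye. The mean was 10.03 ± 2.95 CPM in control and 693 ± 123 CPM in Nrf2 eyes (SD, n = 5). Hmox1 rose 69.4-fold, or by 6.12 on the log2 scale (SE 0.22, edgeR adjusted p = 5.0e-05). Within mice the difference in log2 CPM ran from 5.41 in mouse 1 to 6.68 in mouse 5. By log2 fold change Hmox1 was the 16th of all tested genes. Macrophages also use Hmox1, and 11 of 13 of their markers rose beside it. In the Nrf2 eyes of mice 1 to 5 the macrophage sums were 808, 353, 646, 1041 and 1773 CPM, all above the control range of 161 to 285 CPM. The part of these cells in the result was not tested.

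Hmox2 (ENSMUSG00000004070, chromosome 16, 4726361 to 4766742), the constitutive enzyme, was at 43.0, 39.2, 48.4, 41.3 and 36.0 CPM in control eyes and at 36.6, 39.8, 43.7, 40.5 and 47.8 CPM in Nrf2 eyes. The groups overlapped and neither was the higher. Its means were 41.6 ± 4.63 and 41.7 ± 4.27 CPM. The log2 difference of -0.01 (SE 0.09, adjusted p = 0.976 by edgeR) had the other sign in 5 of 11 alternative fits. Hmox2 shares 892 exon bases with Cdip1 on the opposite strand, which had more counts (23606 against 8076 in all libraries) and a log2 fold change of -0.33 (adjusted p = 0.104), and without strand the reads of both cannot be told apart.

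The order of the paralogs therefore differed between the groups. Within a library the ratio of Hmox1 to Hmox2 counts lay between 0.180 and 0.342 in control eyes and between 12.1 and 19.7 in Nrf2 eyes. The log2 ratio was higher by 6.13 (SE 0.17) in the Nrf2 eye, in 5 of 5 mice. The two-sided exact sign-flip permutation test over mice gave p = 0.0625, the smallest that 5 pairs allow, and over the 3 ratios tested here the adjusted p is also 0.0625. It does not pass, and cannot with this number of mice. A ratio within a library does not depend on how the libraries were scaled.

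**Figure D2:**
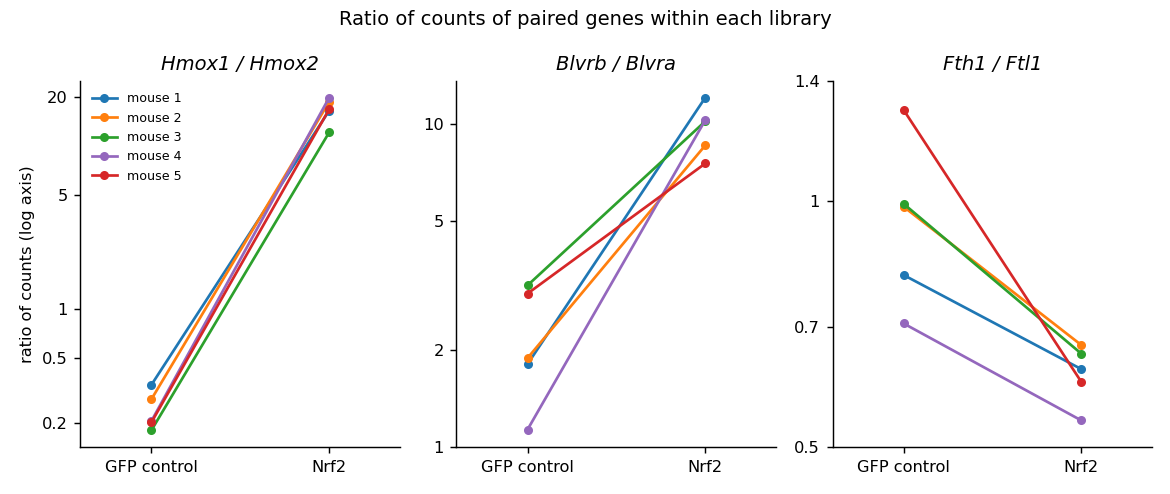
Ratio of counts of Hmox1 to Hmox2, Blvrb to Blvra and Fth1 to Ftl1 in each library (log axes), with lines that join the eyes of a mouse. The first and second ratios are higher and the third is lower in the Nrf2 eye of all 5 mice.

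Of the biliverdin reductases only Blvrb passed the test. Blvrb (ENSMUSG00000040466, chromosome 7, 27447978 to 27466144) reduces flavins with NADPH, while the main biliverdin reductase of adult tissue is Blvra, given below. Blvrb was at 19.4, 27.2, 34.5, 20.1 and 33.1 CPM in control eyes (mice 1 to 5). The Nrf2 eyes had 173, 203, 197, 209 and 177 CPM. No Nrf2 eye came near the control range, and the Nrf2 eyes varied little among themselves. Blvrb averaged 26.9 ± 7.06 CPM in control and 192 ± 15.96 CPM in Nrf2 eyes (SD, n = 5), and rose 7.23-fold, a log2 change of 2.85 (SE 0.19, edgeR adjusted p = 0.00029).

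Blvra (ENSMUSG00000001999, chromosome 2, 127070665 to 127097084), the main biliverdin reductase of adult tissue, was at 10.8, 14.4, 10.9, 17.7 and 11.1 CPM in control and at 14.3, 23.6, 19.3, 20.2 and 23.4 CPM in Nrf2 eyes. The Nrf2 eye had the larger value in 5 of 5 mice, but the groups overlapped. Its log2 difference was 0.63 with an SE of 0.15 (edgeR adjusted p = 0.0666). It passed with DESeq2 (0.64, adjusted p = 0.0126) and without mouse 4 (0.79, adjusted p = 0.0442), whose own difference of 0.12 was the smallest, and the adjusted p reached 0.173 among the other fits. The ratio of Blvrb to Blvra counts lay between 1.13 and 3.17 in control eyes and between 7.56 and 12.1 in Nrf2 eyes. Its log2 was higher by 2.23 (SE 0.34), in 5 of 5 mice (two-sided exact sign-flip permutation p = 0.0625, adjusted p = 0.0625).

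The promoters of the reductases are shown as the windows of the set that held a match to the core of the site that Nrf2 binds. Hmox1, Slc40a1, Slc48a1 and Fech had no promoter window at hand and were not searched. RefSeq promoter windows of 250 bases before and 50 after the start (GRCm38.p6) were at hand for the other 6 of the 10 genes. They came to 11 windows, of which some of Hmox2 and of Tfrc overlap each other. They were searched on both strands for TGACNNNGC and TGAGNNNGC, the core of the antioxidant response element that Nrf2 binds with its Maf partners. The forms differ in 1 letter and cannot match at the same start, and their first letters are shared with AP-1 sites. Blvra held the first form, 49 bases before its start, and the upstream window of Blvrb held the second, 69 bases before its start. These are 2 of the 11 windows, no more than the share among all promoters, where either form occurred in 27.8% of 32851 windows, the first in 12.4% and the second in 17.6%. In the lines below, the 250 bases before the start are given 5′ to 3′ and capitals mark the match, which reads on the minus strand of the window in both genes.
Blvrb, chr7:27447728-27447977, + strand: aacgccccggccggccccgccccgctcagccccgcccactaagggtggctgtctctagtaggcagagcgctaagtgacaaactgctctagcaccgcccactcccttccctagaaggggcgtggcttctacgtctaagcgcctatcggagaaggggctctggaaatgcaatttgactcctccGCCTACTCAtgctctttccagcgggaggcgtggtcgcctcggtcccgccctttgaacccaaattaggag
Blvra, chr2:127070407-127070656, + strand: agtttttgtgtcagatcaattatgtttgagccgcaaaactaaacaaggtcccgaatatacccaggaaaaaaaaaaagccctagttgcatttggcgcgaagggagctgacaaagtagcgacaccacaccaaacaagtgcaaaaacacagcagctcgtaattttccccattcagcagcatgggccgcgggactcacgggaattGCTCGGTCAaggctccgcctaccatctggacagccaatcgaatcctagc
The windows of Fth1, Ftl1, Hmox2 and Tfrc held neither form, nor did a second window of Blvrb. A match is a string of letters, and the search says nothing of sites that lie further from the start.

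The ferritin chains were the most abundant genes of the set. Fth1 (ENSMUSG00000024661, chromosome 19, 9980598 to 9985098), the heavy chain that oxidises iron for storage, was at 1815, 1703, 1986, 2508 and 1782 CPM in control eyes (mice 1 to 5). The Nrf2 eyes had 4897, 4914, 5106, 5473 and 5148 CPM. The Nrf2 eyes were tightly grouped and all above the control eyes. Means were 1959 ± 324 CPM in control and 5108 ± 233 CPM in Nrf2 eyes, so that Fth1 rose 2.60-fold, or by 1.38 on the log2 scale (SE 0.08, edgeR adjusted p = 0.0025).

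Ftl1 (ENSMUSG00000050708, chromosome 7, 45457944 to 45459884), the light chain that helps to form the iron core, was at 2238, 1733, 2004, 3545 and 1380 CPM in control eyes and at 7870, 7380, 7856, 10161 and 8577 CPM in Nrf2 eyes. Mouse 4 was the highest in both groups. Means were 2180 ± 827 CPM in control and 8369 ± 1089 CPM in Nrf2 eyes, so that Ftl1 rose 3.97-fold, or by 1.99 on the log2 scale (SE 0.18, edgeR adjusted p = 0.0022). Ftl1 has close copies that could share reads. Ftl1-ps1 and Ftl1-ps2 held few counts (5806 and 723, against 1027167 for Ftl1) and rose with log2 fold changes of 2.26 and 2.16.

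The sum of both chains was 0.414% ± 0.113 of all counts in control eyes and 1.35% ± 0.131 in Nrf2 eyes (SD, n = 5), and the ranges of 0.316% to 0.605% and 1.23% to 1.56% did not meet. The light chain had the larger log2 fold change in 5 of 5 mice. The ratio of Fth1 to Ftl1 counts ran from 0.708 to 1.29 in control eyes and from 0.539 to 0.666 in Nrf2 eyes, lower in the Nrf2 eye of all 5 mice. Its log2 differed by -0.61 (SE 0.13), with single mice from -1.10 to -0.38 (two-sided exact sign-flip permutation p = 0.0625, adjusted p = 0.0625).

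Ferritin, Slc40a1 and Tfrc share an element in their RNA that the choice of genes did not use. The iron-responsive element is a hairpin with a bulged C and a loop of CAGTGN, bound by the proteins of Aco1 and Ireb2 when iron is scarce. Near the start of an RNA it holds back translation, and in the 3′ untranslated region of Tfrc it protects the RNA from decay. GENCODE M21 transcripts were searched for a C, 5 bases, the loop and 5 bases that pair with the first 5. Such a string stood in the 5′ untranslated region of 0.105% and in the 3′ untranslated region of 0.457% of 21901 protein-coding genes. The sites of Fth1, Ftl1 and Slc40a1 lie in the 5′ untranslated region. They are shown 5′ to 3′ on the mm10 build with the loop in capitals.
Fth1, chr19:9982732-9982760, + strand: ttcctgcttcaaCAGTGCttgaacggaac
Ftl1, chr7:45459779-45459807, - strand: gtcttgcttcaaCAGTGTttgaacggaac
Slc40a1, chr1:45925465-45925493, - strand: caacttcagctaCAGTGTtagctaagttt
Fth1 and Ftl1 carry the same 5 bases on each side of the loop, and Slc40a1 has other stem bases around the loop letters of Ftl1.

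Slc40a1 (ENSMUSG00000025993, chromosome 1, 45908068 to 45926523, - strand) encodes ferroportin, the iron exporter. It was the lowest of the 10 genes in the control eyes of mice 1 to 5, with 39, 47, 7, 46 and 37 counts, or 1.99, 2.90, 0.489, 2.75 and 1.35 CPM. In their Nrf2 eyes it was at 41.9, 47.3, 45.7, 69.4 and 83.6 CPM. The groups lay far apart, and among the Nrf2 eyes mice 4 and 5 were the highest. Slc40a1 averaged 1.90 ± 1.00 CPM in control and 57.6 ± 18.1 CPM in Nrf2 eyes, and rose 31.3-fold, a log2 change of 4.97 (SE 0.44, edgeR adjusted p = 0.00075). Leaving out each mouse in turn and under the other fits the log2 fold change stayed between 4.73 and 5.28. Macrophages carry much ferroportin, and the Nrf2 eyes of mice 4 and 5 also had the highest sums of macrophage and microglia markers, 1041 and 1773 CPM, against 808, 353 and 646 CPM in mice 1 to 3. The part of these cells in the result was not tested.

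Slc48a1 (ENSMUSG00000081534, chromosome 15, 97778520 to 97792692), the transporter that brings heme from endolysosomes to the cytosol, was abundant in both groups. It was at 528, 457, 568, 755 and 394 CPM in control and at 521, 528, 657, 626 and 550 CPM in Nrf2 eyes. The groups overlapped, and the widest spread was among the control eyes. The log2 difference was 0.11 with an SE of 0.12 (edgeR adjusted p = 0.762), and the Nrf2 eye was higher in 3 of 5 mice by CPM and in 4 of 5 by TMM-scaled log2 CPM. In mouse 4 the difference was -0.34 on the latter scale. Slc48a1 shares 29 exon bases with Hdac7 on the opposite strand.

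Tfrc (ENSMUSG00000022797, chromosome 16, 32608920 to 32632794), the transferrin receptor through which cells take up iron, was at 30.7, 39.8, 37.99, 39.1 and 26.8 CPM in control eyes. It was at 28.2, 32.7, 36.4, 47.5 and 34.8 CPM in Nrf2 eyes. The groups overlapped, with the larger value in the Nrf2 eye of 2 of 5 mice. The log2 difference was 0.02 with an SE of 0.10 (edgeR adjusted p = 0.959) and had the other sign in 2 of 11 alternative fits. The search found 4 iron-responsive elements in its 3′ untranslated region, printed here to set beside the 5′ sites above, again with the loop in capitals.
Tfrc, chr16:32631219-32631247, + strand: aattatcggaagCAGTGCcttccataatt
Tfrc, chr16:32631598-32631626, + strand: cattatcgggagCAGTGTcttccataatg
Tfrc, chr16:32631663-32631691, + strand: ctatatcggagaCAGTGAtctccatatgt
Tfrc, chr16:32631710-32631738, + strand: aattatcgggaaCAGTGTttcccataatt

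Fech (ENSMUSG00000024588) encodes ferrochelatase, which inserts iron into protoporphyrin as the last step of heme synthesis. It was the steadiest member. It was at 144, 135, 129, 138 and 151 CPM in control and at 142, 145, 128, 148 and 148 CPM in Nrf2 eyes. Eyes of the same mouse were nearly level, with differences in log2 CPM from -0.12 to 0.08. The log2 difference was 0.01 with an SE of 0.04 (edgeR adjusted p = 0.973). That SE was the smallest of the 10 genes.

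**Figure D3:**
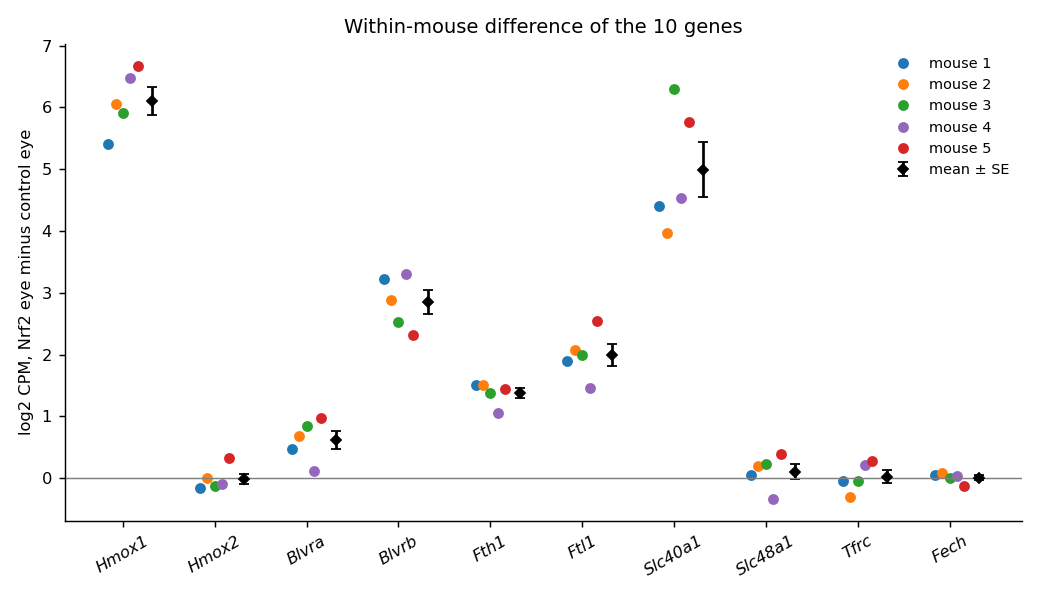
Within-mouse difference in log2 CPM (Nrf2 eye minus control eye, log2 scale) for each of the 10 genes, with 1 point per mouse and the mean ± SE of 5 mice as a diamond. Hmox1 and Slc40a1 stand highest, Blvrb, Ftl1 and Fth1 follow, Blvra lies above 0 in all 5 mice, and the other 4 genes sit around 0.

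Levels were compared between genes as CPM per kilobase of exons (all annotated exons joined, from 1340 bases in Ftl1 to 13838 bases in Fech, which lowers the value of genes with long, little-used exons). In control eyes the order was Ftl1, 1627 ± 617, Fth1, 565 ± 93.4, Slc48a1, 196 ± 49.9, and Hmox2, 18.8 ± 2.09 (SD, n = 5 each), and each of these was above the next in all eyes. Fech, Blvrb, Hmox1, Tfrc and Blvra followed between 5.31 and 10.1, where each overlapped the next. Slc40a1 was last at 0.211 ± 0.111. In Nrf2 eyes Hmox1 moved from the 7th to the 3rd place at 396 ± 70.5 CPM per kilobase, above Slc48a1 at 209 ± 22.4 and below Fth1 at 1472 ± 67.1. Blvrb stood at 68.9 ± 5.74, above Hmox2 at 18.8 ± 1.93. Fech, Blvra, Slc40a1 and Tfrc then lay between 5.80 and 10.3 and overlapped from each to the next.

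**Figure D4:**
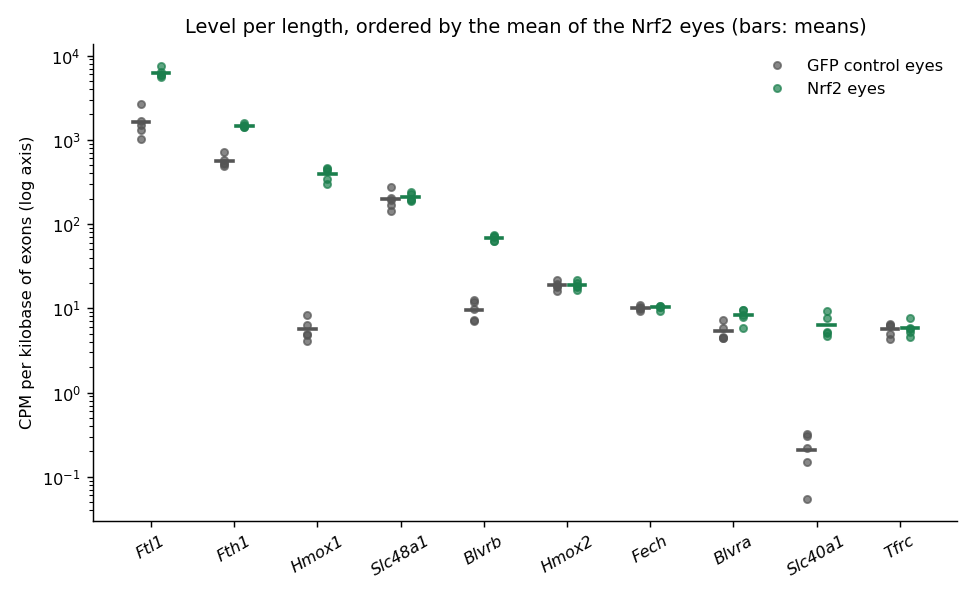
CPM per kilobase of exons (log axis) of the 10 genes in control and Nrf2 eyes, ordered by the mean of the Nrf2 eyes, with 1 point per eye and bars at the means. Hmox1 lies below Hmox2 in the control eyes and above it in the Nrf2 eyes, and Slc40a1 shows the lowest control points.

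To place the 10 genes among the rest of heme and iron metabolism, 65 further genes in 8 lists were examined. Of these, 59 had enough counts to be tested. One list holds 6 factors that act on Hmox1, which are not themselves genes of heme or iron metabolism. Of the 59, 7 rose and 3 fell (edgeR adjusted p under 0.05), against 3.60% and 2.73% of all tested genes. Their median log2 fold change was 0.12. Of the 7 that rose, 3 are in the list of factors, among them Nfe2l2, the gene of the delivered factor. The others that rose were Pgrmc1, Flvcr1, Heph and Hfe. In the lists of heme synthesis (12 genes tested), mitochondrial iron and iron-sulfur clusters (11 genes) and iron chaperones with ferritin turnover (3 genes), 0 genes passed. At an unadjusted p under 0.05 the synthesis list had 1 gene higher and 1 lower, the mitochondrial list 1 lower and the chaperone list 0, against 19.1% of all tested genes, and DESeq2 called 0 genes in all 3. Of the 65 genes DESeq2 called 13 (4 of them in the list of factors), where it called 9.08% of all genes it tested. With the rod covariate 7 passed, where 430 of all 16362 genes did. Without mouse 2, 4 or 5 also 7 passed, where 584 of 16296, 613 of 16764 and 683 of 16455 genes did.

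Among transporters and binders of heme (5 tested), Pgrmc1 and Flvcr1 rose and Flvcr2 fell. Pgrmc1, a membrane protein that binds heme, averaged 402 ± 42.3 CPM in control and 1027 ± 104 CPM in Nrf2 eyes without overlap, and rose by 1.34 on the log2 scale (SE 0.07, edgeR adjusted p = 0.00098). Flvcr1, known as a heme exporter, averaged 19.2 ± 2.93 and 33.4 ± 5.35 CPM, and rose by 0.78 (SE 0.16, adjusted p = 0.0238). Its call was lost with the rod covariate (0.71, adjusted p = 0.133) and without mouse 2 (0.87, adjusted p = 0.0663), 3 (0.89, 0.0502), 4 (0.755, 0.0869) or 5 (0.66, 0.0594). Its relative Flvcr2 fell by 1.53 (SE 0.18, adjusted p = 0.0025) in 5 of 5 mice, from 347 ± 128 to 124 ± 58.0 CPM. The scavengers Cd163, Hpx and Hp had group means of at most 1.68 CPM and did not pass the edgeR filter on low counts. DESeq2, which tested Hp, called it lower (log2 fold change -3.53, adjusted p = 0.0240), with 73, 59, 0, 1 and 27 counts in control and 2, 0, 2, 1 and 1 counts in Nrf2 eyes.

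Iron handling outside the set moved in a few genes. Hfe, which binds the transferrin receptor and tunes iron uptake, went from 32.2, 39.2, 50.3, 50.1 and 23.2 CPM in control to 133, 242, 208, 227 and 179 CPM in Nrf2 eyes. The groups lay apart, and the log2 fold change of 2.35 (SE 0.16, edgeR adjusted p = 0.00034) was the largest of the wider genes. Heph, the ferroxidase that works beside ferroportin, averaged 87.2 ± 21.8 CPM in control and 166 ± 24.2 CPM in Nrf2 eyes, and rose by 0.93 (SE 0.13, adjusted p = 0.0067). Of the other export genes, App, the most abundant, was at 0.10 on the log2 scale (SE 0.15, adjusted p = 0.820), and Cp, the ferroxidase of plasma, at 0.55 (SE 0.36, adjusted p = 0.365). Cp passed without mouse 1 (0.90, adjusted p = 0.0429), whose own difference was -0.72 against 0.46 to 1.49 in the other mice. Of the uptake list, Steap1 was at 0.86 (SE 0.34, adjusted p = 0.161) and Steap2 at 0.89 (SE 0.32, adjusted p = 0.0991). Both passed without mouse 1 (1.18, adjusted p = 0.0418, and 1.18, adjusted p = 0.0223). Steap2 also passed with DESeq2 (0.90, adjusted p = 0.0073) and without the mouse block (0.86, adjusted p = 0.0479).

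Aco1, whose protein is the iron-regulatory protein that binds the elements shown above, fell by 0.86 on the log2 scale (SE 0.10, edgeR adjusted p = 0.0047). It was at 176, 130, 171, 129 and 122 CPM in control and at 74.0, 65.4, 106, 85.5 and 74.9 CPM in Nrf2 eyes, and the groups did not overlap. Ireb2, the gene of the other such protein, stood at -0.41 on the log2 scale (SE 0.11, adjusted p = 0.0932), lower in 5 of 5 mice. Trf, transferrin, was the most abundant of the further genes. It was at 11516, 6191, 12174, 18370 and 6669 CPM in control and at 5612, 2675, 10227, 6407 and 2752 CPM in Nrf2 eyes. The groups overlapped, but each mouse had less in its Nrf2 eye, and Trf fell by 1.08 (SE 0.23, adjusted p = 0.0411). That call was lost without the mouse block (-0.98, adjusted p = 0.332), with the rod covariate (-0.93, adjusted p = 0.200) and without mouse 1 (-1.07, adjusted p = 0.0837), 2 (-1.002, 0.154), 4 (-0.92, 0.112) or 5 (-1.003, 0.115). Of the RPE markers 4 of 10 fell beside Trf, and their part in it was not tested.

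The genes of 6 factors that act on Hmox1 were listed, and 3 rose, where 3.60% of all tested genes did. Nfe2l2, the mouse gene of Nrf2, rose by 1.97 (SE 0.11, edgeR adjusted p = 0.00030), where reads of the human vector sequence may add to the mouse gene. Mafg, a Maf partner of Nrf2, averaged 37.6 ± 9.79 CPM in control and 63.6 ± 7.95 CPM in Nrf2 eyes, and rose by 0.77 (SE 0.13, adjusted p = 0.0124). It shares 124 exon bases with Sirt7. Bach1, the heme-sensing repressor of Hmox1, averaged 5.65 ± 1.69 and 10.1 ± 2.23 CPM, and rose by 0.84 (SE 0.07, adjusted p = 0.0245). Its call was lost in all 5 fits that left out a mouse (0.82 without mouse 1, 0.92 without mouse 2, 0.93 without mouse 3, 0.86 without mouse 4 and 0.85 without mouse 5), without the block (0.82, adjusted p = 0.122) and with the rod covariate (0.86, adjusted p = 0.101). Keap1, the inhibitor of Nrf2, was at 0.35 (SE 0.08, adjusted p = 0.0875), higher in 5 of 5 mice, and passed with DESeq2 and without the block.

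**Figure D5:**
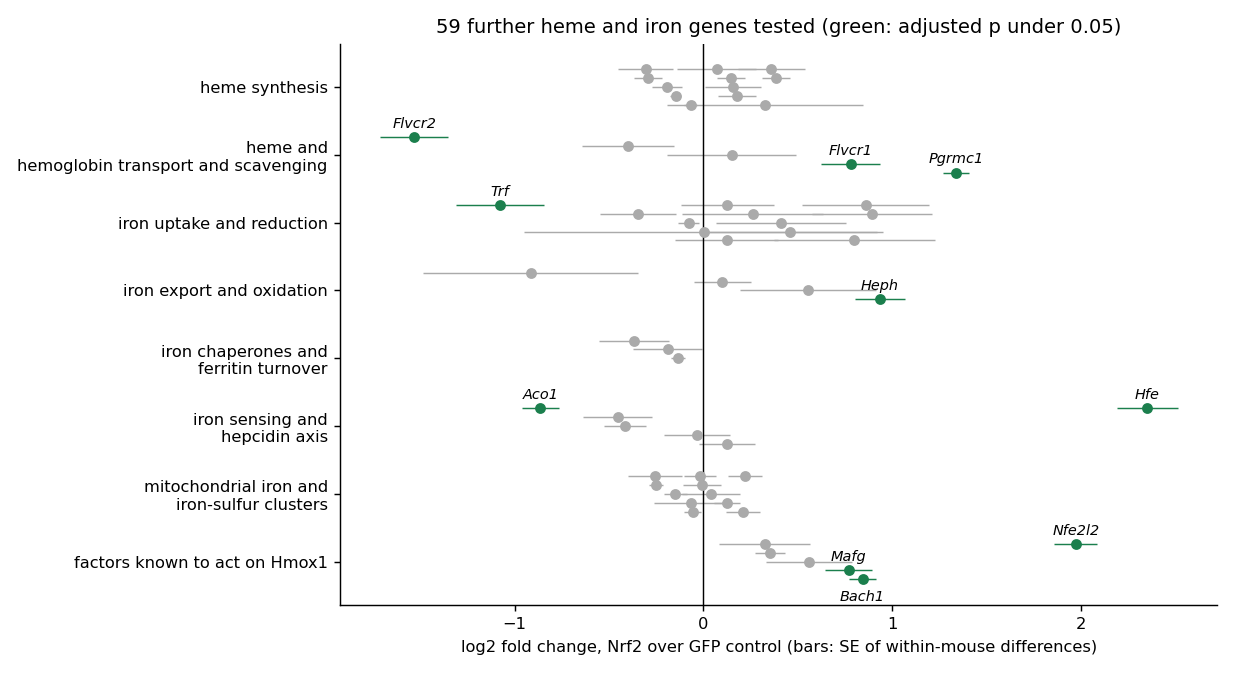
Log2 fold change (Nrf2 over GFP control) of the 59 further genes tested, by list and with the factors that act on Hmox1 included. Bars give the SE of the within-mouse differences. Named green points passed an adjusted p under 0.05: Pgrmc1, Flvcr1, Heph, Hfe, Nfe2l2, Mafg and Bach1 lie above 0, and Flvcr2, Trf and Aco1 below it.

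The genes whose log2 CPM followed Hmox1 most closely over the 10 libraries were Srxn1 (Pearson's r = 0.999), Txnrd1 (0.996), Sstr5 (0.9935), Fbxo2 (0.993) and Tmem158 (0.993). The libraries fall into control and Nrf2 eyes, between which all 5 of these genes also passed the test, and the values serve as a description. Srxn1, sulfiredoxin, averaged 39.2 ± 8.15 CPM in control and 1219 ± 149 CPM in Nrf2 eyes, and Sstr5 had no count in any control eye and 9.66 ± 3.70 CPM in Nrf2 eyes. Slc48a1 was followed by Usp50 (r = 0.983), Cox8a (0.963), Macf1 (0.960), Ndufb4c (0.955) and Gm29216 (0.951), none of which passed the test between the eyes.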

How the data were processed

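RNA of the RPE was amplified with a low-input kit and sequenced, and the eyes of a mouse were paired by the animal number in the labels. The authors aligned reads with STAR to mm10 with Ensembl transcripts and counted them per gene with featureCounts, beside estimates from Salmon 0.8.2 (version per the submitters' processing notes), which they tested with DESeq2. The values deposited are raw whole-number counts per gene with no normalization by the authors. Which of their tables was deposited and the strand setting are not given in the sources used here. Of 47729 gene identifiers 99.1% had an entry in GENCODE M21, which gave symbols, positions and exon lengths.

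The method was first run on simulated counts with the same spread for all genes and fewer changed genes, a simpler case than these data. The whole table was then fitted with edgeR 4.0.16 in R 4.3.3 (filterByExpr, TMM, quasi-likelihood F test blocked by mouse, Benjamini-Hochberg adjustment over 16362 genes, threshold 0.05). Every adjusted p-value of a gene comes from this fit unless DESeq2 1.42.0 or another alternative is named. Each SE was computed over 5 mice from the differences between their eyes in TMM-scaled log2 CPM (prior count 2). CPM use library totals. Ratios had 0.5 counts added, and their p-values were adjusted over the 3 ratios. Counting limits cover counting error only.

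The pairing was checked by correlating, over genes, each eye's deviation from its group mean with that of its fellow eye (Pearson's r from 0.186 to 0.707 over the 5 mice, against -0.421 to 0.280 between mice). The 10 genes, the 8 further lists, the 7 marker lists and the alternatives were chosen with earlier results of these data known. Named genes are the 10 members, the further genes with an adjusted p under 0.05 (at most 12), the gene of each further list with the highest mean CPM over all 10 libraries, and the 5 genes most like Hmox1 and Slc48a1. Ireb2, Cp, Hp, Keap1, Steap2, Alas1 and the other further genes and markers named were chosen after their values were seen. Alternatives were RLE scaling, no filter, a mean of at least 50 counts, DESeq2, no block, the mean of the rod markers as a covariate, and each mouse left out.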

Additional observations from a re-analysis of the deposited data

How the results depend on the processing

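The 5 calls among the 10 genes held in all 11 alternative fits. Without the replicate block 755 genes passed in place of 1036 and the 10 genes kept their calls, while among the wider genes Trf and Bach1 were lost and Keap1 and Steap2 gained, for 10 calls as before. DESeq2 gave 1808 genes over all, and the rod covariate 430. Leaving out a mouse gave 584 (without mouse 2) to 857 (without mouse 1), each from fewer samples. Without mouse 4, 5 or 3 the counts were 613, 683 and 714. The cause of these differences was not tested. Of the 10 genes, 5 to 6 passed under every alternative, and of the wider genes 7 to 13. The log2 change of Hmox2 turned to 0.010 with the rod covariate and ran from -0.094 to 0.077 with a mouse left out (above 0 without mouse 1, 2, 3 or 4). That of Tfrc turned to -0.022 and ran from -0.044 (without mouse 5) to 0.14, and none of these passed. Without pairing, an exact permutation of the group labels gave p = 0.0079 for each ratio, at log2 differences of 6.13 (Hmox1 to Hmox2), 2.23 (Blvrb to Blvra) and -0.61 (Fth1 to Ftl1), a test that can go below what 5 pairs allow. Leaving out each mouse, these ran from 6.01 to 6.26, from 1.99 to 2.45 and from -0.67 to -0.49. Among the 10 genes, Slc40a1 had the fewest counts in control eyes, 7 to 47.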

Other observations

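Among the 49 wider genes that did not pass the test, 11 lay on a single side in 5 of 5 mice by TMM-scaled log2 CPM. Of these, 7 were lower and 4 higher, and of all 15326 tested genes that did not pass 8.76% were lower and 6.02% higher in every mouse. The lower ones included enzymes of heme synthesis, Alad, which was the most abundant of that list (log2 fold change -0.29, SE 0.07, edgeR adjusted p = 0.165) and Urod (-0.15, SE 0.03, adjusted p = 0.408). They also included Ireb2, Bmp6 (-0.45, SE 0.18, adjusted p = 0.167), Nfs1 and Isca2. The higher ones were Abcb10, a mitochondrial transporter (0.38, SE 0.08, adjusted p = 0.0975), Keap1, Lyrm4 and Hscb. Alas1, the rate-limiting enzyme of heme synthesis outside red cells, was at 173 ± 32.03 CPM in control and 226 ± 49.0 CPM in Nrf2 eyes (SD, n = 5 each, adjusted p = 0.266), higher in 4 of 5 mice. Pcbp1, an iron chaperone and the most abundant of its list, was at -0.13 (SE 0.04, adjusted p = 0.502), and Isca1, the most abundant of the iron-sulfur list, at -0.25 (SE 0.14, adjusted p = 0.379). These are values short of the threshold and are given without explanation.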
